A study of Mus musculus with 8 samples.

Results

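Transcripts of 10 cyclic nucleotide phosphodiesterase genes were followed in mouse pancreatic islets: the 4 genes of the PDE4 family (Pde4a, Pde4b, Pde4c and Pde4d), Pde3a and Pde3b, Pde1a and Pde1c, Pde8a and Pde10a. The genes were chosen by name, as the PDE4 family and the other main phosphodiesterases of islets, and all 10 were found among the 55414 gene identifiers of each count table. Islets, the endocrine clusters of the pancreas, came from C57BL/6 mice of 5 weeks. The 4 TG libraries came from mice labelled Ins2 cre(+/-) ATF4 TG(+/-), and the 4 WT libraries from mice labelled Ins2 cre(-/-) ATF4 TG(+/-). Mice of both groups therefore carried the ATF4 transgene, and the groups differed by Ins2 cre. Its label names the insulin 2 gene, whose promoter is active chiefly in beta cells, as the driver of the recombinase. No group carries the Cre driver alone, so the transgene's effect and the driver's cannot be told apart. The series' title ties endoplasmic reticulum stress, ATF4 and Pde4d to the incretin response of beta cells, so the comparison asks how the phosphodiesterase transcripts differ between TG and WT islets.

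Phosphodiesterases end the signal of cyclic AMP and cyclic GMP by hydrolysing them. In beta cells the incretin hormones GLP-1 and GIP raise cyclic AMP, which strengthens glucose-stimulated insulin secretion, so the enzymes that degrade it set how strong and how long that signal is. Families differ in their regulation: PDE4 enzymes are specific for cyclic AMP, PDE3 enzymes degrade cyclic AMP and are inhibited by cyclic GMP, PDE1 enzymes are activated by calcium and calmodulin, PDE8 enzymes have a high affinity for cyclic AMP, and PDE10A degrades both nucleotides.

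The libraries held 16521087 to 22499999 counts assigned to genes. Values are given as CPM, the count scaled to a common library size with TMM normalization. Whether each library stands for its own mouse is not stated, so every p-value reflects the spread among libraries, which may be technical. Atf4 measured 261 ± 19.8 CPM in TG and 352 ± 21.1 CPM in WT libraries (SD, n = 4 each), lower in the islets labelled TG (log2 fold change −0.43, adjusted p = 0.00226, edgeR), and whether transgene transcripts are counted in this gene is not known, so it does not check the labels. Ins1 (6622 ± 2188 CPM in TG, 19964 ± 1521 CPM in WT) and Ins2 (33580 ± 2956 CPM in TG, 69622 ± 9106 CPM in WT), the insulin genes, fell. Markers of several cell types moved with the groups. All 10 beta cell markers were called lower in TG (summed 49556 to 63109 CPM in TG, 102070 to 122620 CPM in WT). All 12 endothelial markers were called higher (1360 to 1393 CPM in TG, 560 to 975 CPM in WT), and so were 9 of 14 stellate, fibroblast and mural markers (3672 to 6965 CPM in TG, 924 to 2993 CPM in WT). Of the other marker lists, 5 of 6 ductal (748 to 1022 CPM in TG, 364 to 415 CPM in WT), 6 of 9 tested macrophage and lymphocyte (178 to 460 CPM in TG, 102 to 161 CPM in WT) and 2 of 6 Schwann cell markers (78.1 to 99.4 CPM in TG, 46.2 to 64.6 CPM in WT) were called higher. The stellate, fibroblast and mural count was 3 with WT replicate 1 left out and 5 with WT replicate 4 left out. The ductal count was 1 without WT replicate 2, 2 without TG replicate 1, TG replicate 3 or WT replicate 1, and 3 without WT replicate 3. Acinar markers ranged from 7630 to 48231 CPM in TG and from 1488 to 14441 CPM in WT, with 0 of 12 called by edgeR or by DESeq2 and 0 at an unadjusted p under 0.05 in edgeR. Of the other endocrine markers, 1 of 7 alpha cell markers was called lower and 1 of 6 delta and PP cell markers higher, and neither call held without TG replicate 1. All these marker counts are to be read against the 12.1% of all genes tested called higher and the 8.06% called lower. The alpha cell and the delta and PP cell counts lie near those shares. Every marker of these lists had counts. Fewer cells of a type and less RNA per cell cannot be told apart in whole islets.

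Of the 10 genes, 3 were called higher in TG (Pde4d, Pde3a and Pde1a) and 2 lower (Pde1c and Pde3b), at an adjusted p under 0.05 in edgeR's quasi-likelihood test over all 20509 genes tested. Of all genes tested, 20.1% were called in either direction, 12.1% higher and 8.06% lower, the shares against which the 3 and 2 of 10 are to be read. The median log2 fold change of the 10 was −0.17, against 0.00 for all genes tested. The groups did not overlap for 6 of the 10, with TG above for Pde4d, Pde3a and Pde1a and below for Pde4b, Pde3b and Pde1c, where 22.6% of all genes did not overlap (12.6% above, 9.94% below). The sum of the 10 was lower in TG. It stood at 362, 390, 400 and 389 CPM in TG replicates 1 to 4, against 484, 496, 498 and 466 CPM in WT replicates 1 to 4, 1.26-fold lower on average.

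**Figure D1:**
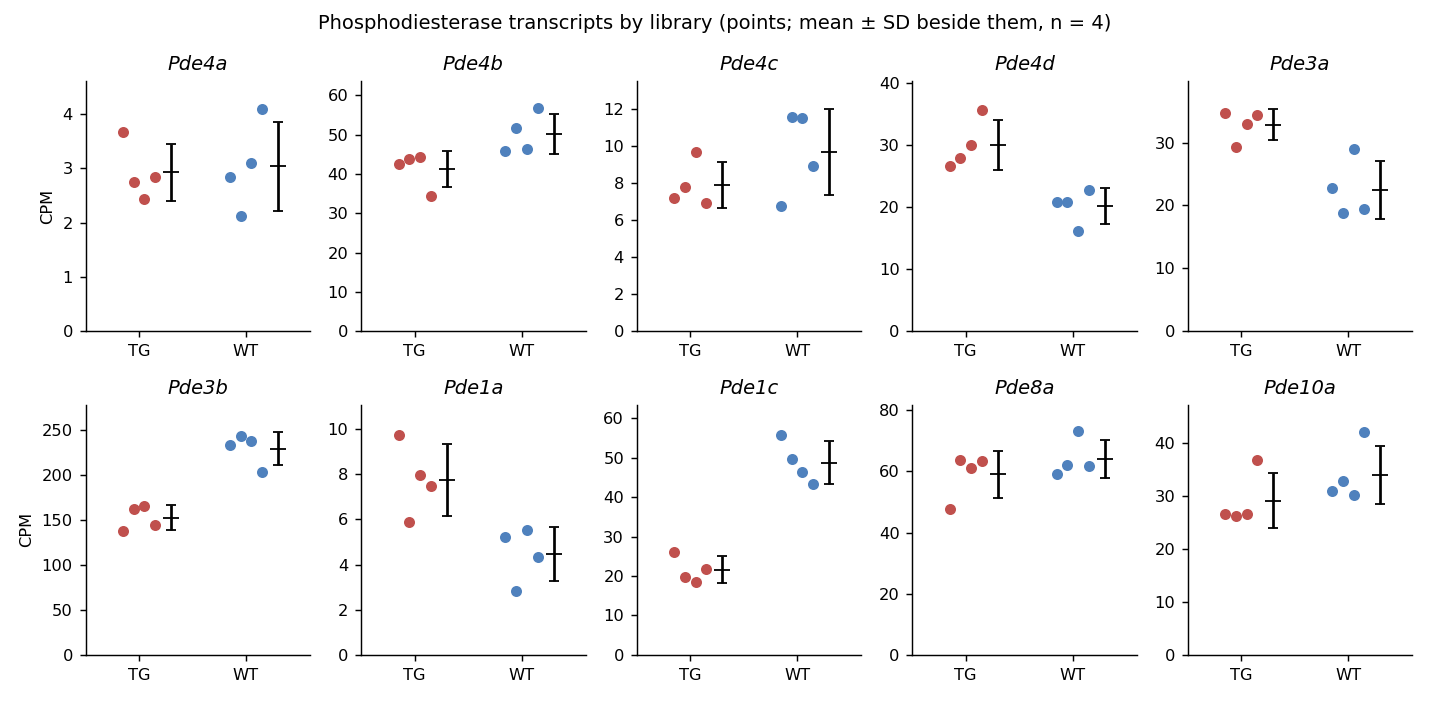
CPM of the 10 phosphodiesterase genes in each TG and WT library (points), with the mean and SD of each group beside them (n = 4). Pde4d, Pde3a and Pde1a lie higher in all TG libraries, Pde1c, Pde3b and Pde4b lie lower in all TG libraries, and the other 4 genes overlap.

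Pde4d encodes a cyclic AMP-specific phosphodiesterase with many isoforms made from alternative starts, and it is the gene of the series' title. It measured 26.6, 27.8, 29.9 and 35.6 CPM in TG replicates 1 to 4, against 20.8, 20.9, 16.1 and 22.7 CPM in WT replicates 1 to 4. All TG libraries lay above all WT libraries, with TG replicate 4 the highest and WT replicate 3 the lowest. The difference was 1.49-fold (log2 fold change 0.58, SE 0.13, adjusted p = 0.00636, edgeR). Endothelial and stromal markers moved with the groups as well, and their part in the Pde4d difference was not tested. Among WT libraries these markers were highest in WT replicate 3 (975 and 2993 CPM), the library with the lowest Pde4d. With the mean log2 CPM of these markers as a covariate the log2 fold change of Pde4d was 1.14 (SE 0.26, adjusted p = 0.0366, edgeR), in a fit that called 1.62% of all genes. That covariate did not overlap between groups (0.507 to 0.888 in TG, −1.0 to 0.095 in WT), so the fit cannot tell the markers' part from the group's. Counts per gene sum over isoforms, of which 20 transcripts are annotated for Pde4d, so a change between isoforms was not measured.

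Because the title names ATF4, windows before transcription starts were read for 3 letter patterns on both strands: TGATGNAA, the core of the C/EBP-ATF response element to which ATF4 binds with a partner, TGACGTCA, the cyclic AMP response element, and TGACG, the shorter core that the full element contains. RefSeq's promoter table (GRCm38.p6) held 19 windows of 300 bases, from 250 before to 50 after a start, for 8 of the 10 genes (not Pde3a or Pde3b). TGATGNAA was in 0 of the 19 windows and in 3.97% of all 32851 windows of that length. TGACGTCA was in 0 of 19 and in 1.79% of all windows, and TGACG in 4 of 19 and in 20.8% of all windows. The 4 windows with TGACG belong to Pde4a, Pde4b, Pde8a and Pde1a. The 250 bases before the start are shown for Pde4d, whose share of PDE4 counts was higher in TG, and for the Pde4b start that holds TGACG, the gene whose share was lower. The Pde4d window is chr13:108653927-108654176 and the Pde4b window chr4:102421305-102421554, both on the plus strand, 5′ to 3′, with the match in capitals (CGTCA, read on the other strand as TGACG, 34 bases before the start).
Pde4d: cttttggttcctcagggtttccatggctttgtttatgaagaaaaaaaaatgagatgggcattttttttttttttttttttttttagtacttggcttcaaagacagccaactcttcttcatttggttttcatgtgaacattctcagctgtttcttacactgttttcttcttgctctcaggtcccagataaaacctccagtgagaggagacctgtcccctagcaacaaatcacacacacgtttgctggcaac
Pde4b: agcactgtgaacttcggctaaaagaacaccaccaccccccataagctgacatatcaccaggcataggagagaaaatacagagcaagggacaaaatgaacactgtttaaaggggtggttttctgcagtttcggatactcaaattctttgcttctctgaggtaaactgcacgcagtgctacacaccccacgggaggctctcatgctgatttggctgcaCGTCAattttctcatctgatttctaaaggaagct
These are single windows of genes with several starts, and a missing match says only that the letters are not in them.

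The other PDE4 genes did not pass the test. Pde4b, the PDE4 gene with the most counts in these islets and one that is abundant in immune cells, measured 42.4, 43.9, 44.2 and 34.4 CPM in TG replicates 1 to 4, against 45.7, 51.6, 46.2 and 56.7 CPM in WT replicates 1 to 4. Its groups did not overlap, with every TG library below every WT library, but its log2 fold change of −0.28 (SE 0.11) missed the threshold (adjusted p = 0.0851, edgeR). Pde4c measured 7.18, 7.78, 9.67 and 6.95 CPM in TG, against 6.76, 11.6, 11.5 and 8.92 CPM in WT (−0.30, SE 0.20, adjusted p = 0.34). Pde4a measured 3.67, 2.76, 2.43 and 2.85 CPM in TG, against 2.85, 2.12, 3.10 and 4.09 CPM in WT (−0.05, SE 0.27, adjusted p = 0.926). For Pde4c and Pde4a, both PDE4 enzymes of low counts here, the groups overlapped.

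The summed PDE4 level was close in both groups while its make-up differed. The 4 genes summed to 79.8, 82.2, 86.2 and 79.8 CPM in TG replicates 1 to 4, against 76.2, 86.2, 76.9 and 92.4 CPM in WT replicates 1 to 4, with means of 82.0 ± 2.99 CPM in TG and 82.9 ± 7.80 CPM in WT (SD, n = 4 each). Pde4d supplied 36.6% ± 5.36 of PDE4 counts in TG and 24.2% ± 2.64 in WT (SD, n = 4 each), a difference of 12.4 percentage points (p = 0.0286 in a two-sided exact permutation test, the smallest value that 70 arrangements allow). By library this share was 33.3%, 33.8%, 34.7% and 44.6% in TG, against 27.3%, 24.2%, 20.9% and 24.6% in WT, without overlap. Pde4b was the largest PDE4 share in all WT libraries and in 3 of 4 TG libraries. It took 53.1%, 53.4%, 51.3% and 43.1% in TG, against 60.1%, 59.9%, 60.1% and 61.3% in WT. The mean Pde4b share was 50.2% ± 4.82 in TG and 60.3% ± 0.668 in WT, with TG replicate 4 the library that stood apart from the other TG libraries. The shares of Pde4c (9.59% ± 1.13 in TG, 11.7% ± 2.95 in WT) and Pde4a (3.58% ± 0.746 in TG, 3.66% ± 0.853 in WT) overlapped between groups. Counts grow with transcript length, so these are shares of reads. Divided by exon length, the Pde4d share of the family was 30.6% ± 4.85 in TG and 19.6% ± 2.61 in WT.

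**Figure D2:**
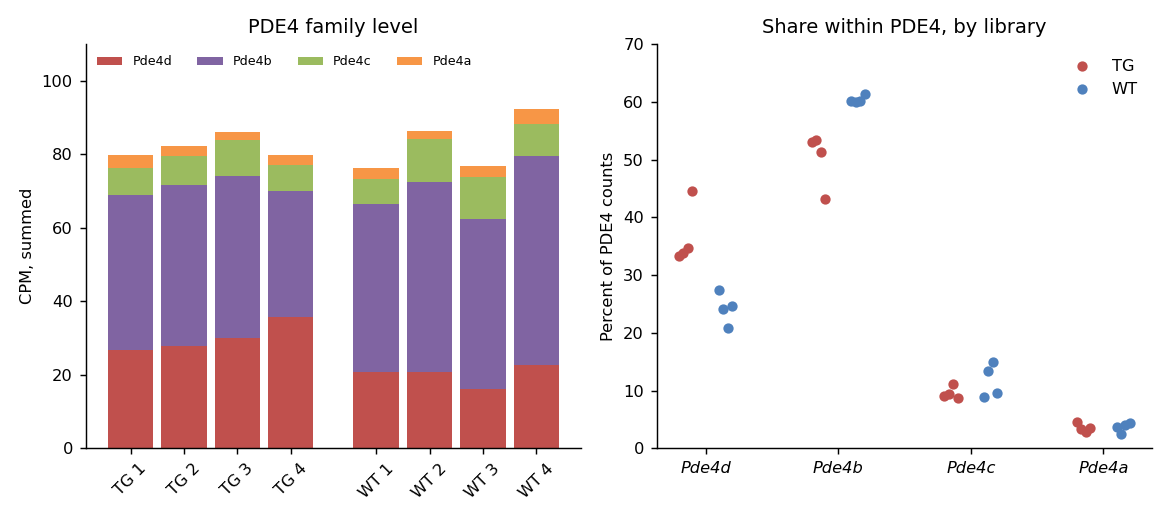
Left, CPM of the 4 PDE4 genes stacked for each TG and WT library. Right, the percent of PDE4 counts from each gene, 1 point per library. The stacks reach between 79.8 and 86.2 CPM in TG and between 76.2 and 92.4 CPM in WT, while the Pde4d share is higher and the Pde4b share lower in every TG library.

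The PDE3 genes moved in opposite directions. Pde3b, which insulin signalling activates in fat cells and which limits cyclic AMP in beta cells, had the most counts of the 10 genes. It measured 137, 163, 166 and 145 CPM in TG replicates 1 to 4, against 234, 243, 238 and 203 CPM in WT replicates 1 to 4. All TG libraries lay below all WT libraries, a 1.5-fold fall (log2 fold change −0.59, SE 0.091, adjusted p = 0.000376, edgeR). All 10 beta cell markers were called lower in the same libraries, and their part in the fall of Pde3b was not tested. With the vascular and stromal covariate the value was about as large (−0.62, SE 0.20) but not called (adjusted p = 0.169).

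Pde3a, a form prominent in heart, smooth muscle and platelets, rose 1.46-fold. It measured 34.7, 29.3, 32.9 and 34.4 CPM in TG, against 22.8, 18.7, 28.9 and 19.5 CPM in WT (log2 fold change 0.54, SE 0.14, adjusted p = 0.0105, edgeR). The groups did not overlap, and WT replicate 3 lay just under the lowest TG library, TG replicate 2. Endothelial and stromal markers were highest in that library among WT, and their part in the Pde3a difference was not tested. With the vascular and stromal covariate the value was −0.12 (SE 0.22, adjusted p = 0.907, edgeR). That covariate did not overlap between groups, so this fit cannot tell the markers' part from the group's. An antisense gene, Gm28523, overlaps 5.82% of the Pde3a exons and held 92 counts over all libraries against 4474 for Pde3a. The ratio of Pde3a to Pde3b counts was 0.217 ± 0.0337 in TG and 0.0980 ± 0.0184 in WT (SD, n = 4 each), without overlap.

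The PDE1 genes showed the same split. Pde1c, a calcium-activated enzyme of beta cells that degrades both nucleotides, had the largest change of the 10. It measured 26.2, 19.9, 18.5 and 21.9 CPM in TG replicates 1 to 4, against 55.8, 49.8, 46.3 and 43.3 CPM in WT replicates 1 to 4. The groups stood far apart, and the fall was 2.26-fold (log2 fold change −1.18, SE 0.12, adjusted p = 1.15e-05, edgeR). It was called in all 17 other settings, with values from −1.31 to −1.11. The median log2 fold change of the 10 beta cell markers was −1.22 in the same libraries, and their part in the fall of Pde1c was not tested.

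Pde1a, a relative of Pde1c known from brain, kidney and smooth muscle, had few counts. It measured 9.72, 5.87, 7.95 and 7.46 CPM in TG, against 5.22, 2.81, 5.51 and 4.34 CPM in WT, 1.73-fold higher (log2 fold change 0.79, SE 0.24, adjusted p = 0.0285, edgeR). The groups did not overlap, though TG replicate 2 lay just above WT replicate 3. The call was lost without TG replicate 1 (0.67), TG replicate 3 (0.75), WT replicate 2 (0.61) or WT replicate 4 (0.77), with acinar markers as a covariate (0.66) and with the vascular and stromal covariate (−0.05). Summed, the PDE1 genes of the list stood at 29.4 ± 4.63 CPM in TG and 53.2 ± 5.62 CPM in WT.

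**Figure D3:**
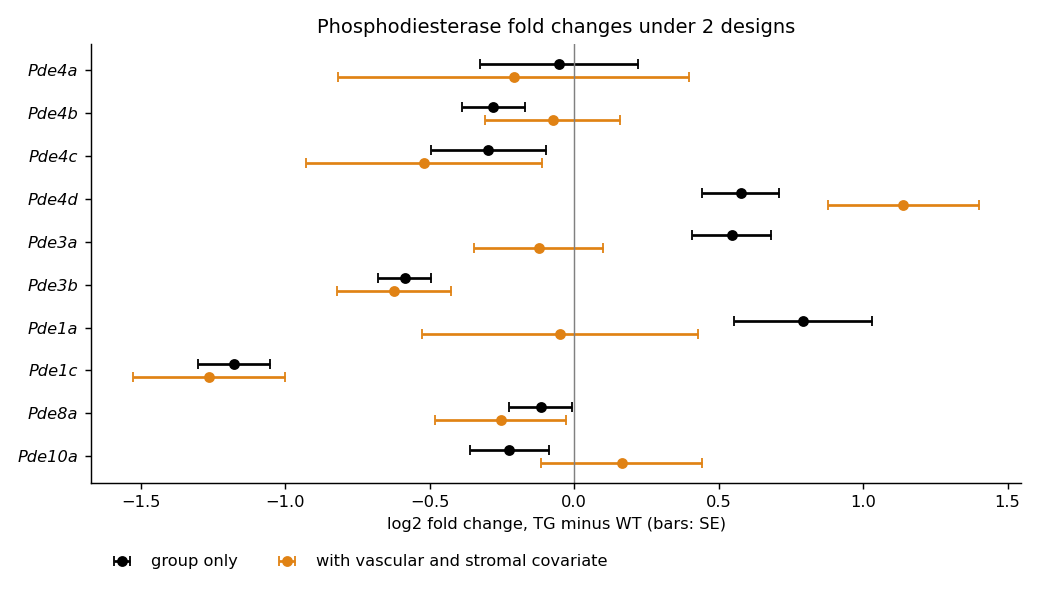
log2 fold change (TG minus WT) with its SE for each gene, with group as the only term (black) and with vascular and stromal markers as a covariate (orange). Pde1c and Pde4d keep their sides of 0 and were called under both designs, while Pde3a and Pde1a lie near 0 with the covariate. The covariate did not overlap between groups.

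Pde8a and Pde10a overlapped between groups. Pde8a, a cyclic AMP-specific enzyme that common non-selective inhibitors leave active, measured 47.6, 63.9, 61.3 and 63.4 CPM in TG, against 59.0, 62.2, 73.1 and 61.6 CPM in WT (log2 fold change −0.12, SE 0.11, adjusted p = 0.517, edgeR). Pde10a, best known from striatal neurons, measured 26.7, 26.3, 26.7 and 36.9 CPM in TG, against 31.0, 32.8, 30.2 and 42.0 CPM in WT (−0.22, SE 0.14, adjusted p = 0.294). Within each group replicate 4 was the highest for Pde10a and for Pde4d. Without TG replicate 4, Pde10a was called lower (−0.39, adjusted p = 0.0488, edgeR) and Pde4d stood at 0.45 (adjusted p = 0.0334, edgeR).

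The order of levels, compared per kilobase of exon, changed in the middle of the list. Pde3b led in both groups, at 16.8 ± 1.52 CPM per kilobase in TG and 25.2 ± 1.98 in WT (SD, n = 4 each), followed by Pde8a at 14.6 ± 1.90 in TG and 15.8 ± 1.54 in WT. These genes overlapped in TG and did not in WT. Pde4b was the third in both groups (3.90 ± 0.436 in TG, 4.74 ± 0.488 in WT) and Pde4a the lowest (0.382 ± 0.0690 in TG, 0.397 ± 0.107 in WT). Pde4d ranked 5 in TG at 2.50 ± 0.332, where it overlapped its neighbours Pde3a (2.58 ± 0.194) and Pde10a (2.27 ± 0.401), and 8 in WT at 1.68 ± 0.237, where it overlapped Pde4c (1.74 ± 0.416) and not Pde1a (0.743 ± 0.202). Pde1c ranked 9 in TG at 1.08 ± 0.167, where it overlapped Pde1a (1.29 ± 0.264), and 5 in WT at 2.43 ± 0.268, where it overlapped Pde10a (2.65 ± 0.425) and Pde3a (1.76 ± 0.364).

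The mix of phosphodiesterase reads was described as the share of each gene in the summed counts of 21 catalytic phosphodiesterase genes, the 10 plus 11 others. Pde4d supplied 4.13%, 3.67%, 4.14% and 5.12% in TG replicates 1 to 4, against 2.7%, 1.90%, 1.89% and 2.28% in WT replicates 1 to 4. The mean share was 4.27% ± 0.609 in TG and 2.19% ± 0.384 in WT (SD, n = 4 each), a difference of 2.07 percentage points (p = 0.0286 in the same two-sided exact permutation test). Shares of all 21 genes were compared in this way, and again over other denominators, and these p-values are not adjusted. Pde3a (4.69% ± 0.642 in TG, 2.51% ± 0.805 in WT) and Pde1a (1.11% ± 0.301 in TG, 0.504% ± 0.197 in WT) also took larger shares without overlap, and Pde1c took a smaller one (3.10% ± 0.694 in TG, 5.39% ± 1.32 in WT), each with the same exact permutation p = 0.0286. The shares of Pde3b, Pde8a, Pde10a, Pde4a, Pde4b and Pde4c overlapped between groups. Of the 11 others, Pde9a (0.623% ± 0.144 in TG, 0.277% ± 0.121 in WT) and Pde6a (0.203% ± 0.132 in TG, 0.00855% ± 0.0093 in WT) took larger shares without overlap, each at exact permutation p = 0.0286.

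The denominator was dominated by a gene outside the list. Pde5a, a cyclic GMP-specific phosphodiesterase, supplied 37.1% ± 2.75 of the counts in TG and 41.5% ± 9.68 in WT, and its own level was spread among WT libraries (263 ± 36.5 CPM in TG, 396 ± 150 CPM in WT, adjusted p = 0.19, edgeR). The 16 genes that degrade cyclic AMP leave Pde5a out. Of their counts Pde3b supplied 35.3% ± 2.03 in TG and 43.5% ± 2.41 in WT, now without overlap (exact permutation p = 0.0286), Pde1c 5.03% ± 1.0 in TG and 9.27% ± 1.0 in WT, and Pde4d 6.94% ± 0.855 in TG and 3.83% ± 0.643 in WT. Of these 16 the summed level was 432 ± 18.2 CPM in TG and 527 ± 16.2 CPM in WT, without overlap. Pde2a, 1 of the 16, shares 64.3% of its exon bases with the annotated gene Gm45837 on the same strand, so its count is uncertain.

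**Figure D4:**
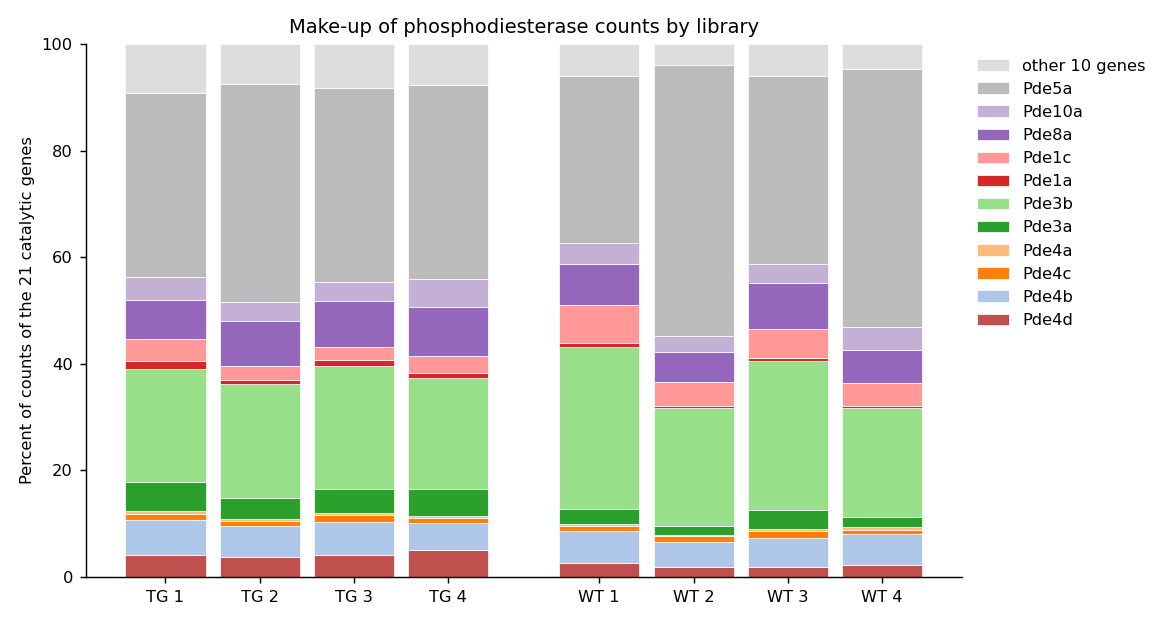
Percent of the counts of the 21 catalytic phosphodiesterase genes from each gene, 1 bar per TG or WT library. Pde4d at the foot of each bar spans 3.67% to 5.12% in TG and 1.89% to 2.7% in WT, and the grey Pde5a block ranges from 31.3% to 51.0% among WT libraries.

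The mix of the other genes also differed when Pde4d was left out of the sum. Among the counts of the remaining 9 genes of the list, Pde3a supplied 9.27% ± 0.985 in TG and 4.81% ± 0.883 in WT, Pde1a 2.19% ± 0.527 in TG and 0.959% ± 0.256 in WT, Pde1c 6.12% ± 1.22 in TG and 10.5% ± 1.12 in WT, and Pde3b 43.0% ± 2.27 in TG and 49.2% ± 2.42 in WT. None of these 4 overlapped between groups, and the other 5 did. The ratio of Pde4d to Pde1c counts was 1.02, 1.40, 1.62 and 1.63 in TG replicates 1 to 4, against 0.373, 0.419, 0.347 and 0.525 in WT replicates 1 to 4. Pde4d thus had more reads than Pde1c in every TG library and fewer in every WT library. Its ratio to Pde3b was 0.198 ± 0.0335 in TG and 0.0886 ± 0.0182 in WT, and its ratio to Pde8a was 0.511 ± 0.0608 in TG and 0.319 ± 0.0676 in WT, both without overlap.

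Of the 11 other catalytic phosphodiesterases, 10 were tested and 0 passed edgeR's threshold, where 20.1% of all genes were called. Of these, 3 (Pde7b, Pde9a and Pde11a) had an unadjusted p under 0.05. DESeq2 and limma-voom called 1 each, and edgeR with a replicate block called 2 higher and 1 lower. Pde6a, a photoreceptor gene, was left out by the filter on low counts. It had 43, 29, 7 and 29 counts in TG replicates 1 to 4, against 1, 0, 4 and 1 in WT replicates 1 to 4, without overlap. With no filter on low counts, 11 were tested and 1 was called higher in edgeR.

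Of the rest of the pathway, ordered from receptor to target, the genes given are the 4 with the smallest adjusted p per list in edgeR's test, plus any further called gene, named after its value was seen. The counts of each list stand against the 12.1% of all genes called higher and the 8.06% called lower. Of 16 receptors and G proteins, 3 were called higher and 3 lower (median log2 fold change 0.06). The incretin receptors Gipr (−1.54, SE 0.13) and Glp1r (−1.03, SE 0.16) fell, and so did the somatostatin receptor Sstr3 (−0.35, SE 0.098), while the prostaglandin receptor Ptger3, which lowers cyclic AMP, rose (0.99, SE 0.22), as did the adenosine receptor Adora2b (0.83) and the G protein Gnal (0.80). Of 10 adenylyl cyclases, which make cyclic AMP, 4 were higher and 1 lower (median 0.48). Adcy5 (0.76, SE 0.14), Adcy7 (1.54, SE 0.31), Adcy4 (1.11, SE 0.27) and Adcy2 (0.78) rose and Adcy9 fell (−0.39, SE 0.11). Of 11 genes of protein kinase A, its inhibitors and EPAC, 2 were higher and 2 lower (median −0.07). The cyclic AMP sensor Rapgef4 (EPAC2) fell (−0.61, SE 0.093) and its relative Rapgef3 (EPAC1) rose (0.79, SE 0.12), and of the kinase inhibitors Pkig rose (0.58, SE 0.13) and Pkib fell (−0.56, SE 0.16).

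Of 16 anchoring proteins and partners of PDE4, 2 were higher and 1 lower (median −0.11), a share near the 20.1% of all genes. Beta-arrestin 1, Arrb1, which carries PDE4D to activated receptors, stood at 53.1 ± 11.9 CPM in TG and 20.5 ± 6.31 CPM in WT (SD, n = 4 each), a log2 fold change of 1.37 (SE 0.24, adjusted p = 0.00348, edgeR), and the anchor Akap12 rose (1.09, SE 0.24) while Akap13 fell (−0.41, SE 0.10). Akap9, an anchor at the centrosome and Golgi, measured −0.26 (adjusted p = 0.0556). Of 15 cyclic AMP-responsive genes, 2 were higher and 1 lower (median 0.00), again near that share: Crem fell (−0.47, SE 0.13), Fosb (SE 0.26, 2.02-fold) and Ppargc1a (0.76, SE 0.25) rose, and Sik1 measured 0.59 (adjusted p = 0.0586).

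Of 10 cyclic GMP signalling genes, 5 were higher and 0 lower (median 0.77). The subunits of the nitric oxide receptor guanylyl cyclase rose, with Gucy1b1 at 67.6 ± 8.78 CPM in TG and 33.5 ± 7.47 CPM in WT (SD, n = 4 each), adjusted p = 0.000217 in edgeR, Gucy1a1 at 1.02 (SE 0.17) and Gucy1a2 at 0.98 (SE 0.27), as did the cyclic GMP-dependent kinase Prkg1 (0.70, SE 0.12) and the endothelial nitric oxide synthase Nos3 (0.86). In the same libraries 12 of 12 endothelial and 9 of 14 stellate, fibroblast and mural markers were called higher. The markers' part in the cyclic GMP differences was not tested. With the vascular and stromal covariate, 0 of these 10 genes were called and their median was 0.22, in a fit that called 1.62% of all genes. That covariate did not overlap between groups, so the fit cannot tell the markers' part from the group's. Gipr was the only gene of the 6 pathway lists still called (−1.80, adjusted p = 0.000289, edgeR). Among the genes no longer called, Glp1r stood at −1.24 (adjusted p = 0.0506), Rapgef4 at −0.61 and Pkig at 0.81, about as large as or larger than without the covariate. Of the cyclic GMP genes, Gucy1a2 (1.16) and Prkg1 (0.65) also stayed about as large, while Gucy1b1 (0.38) and Gucy1a1 (0.31) were smaller. Gnal (0.92) was larger, and Ptger3 (0.845), Adora2b (0.715) and Adcy5 (0.623) were somewhat smaller. Adcy4 (−0.35), Adcy2 (−0.10), Nos3 (−0.50) and Fosb (−0.04) turned sign, and Adcy7 (0.13), Akap12 (0.13) and Arrb1 (0.31) were smaller. Rapgef3 (0.389), Ppargc1a (0.244), Pkib (−0.355) and Adcy9 (−0.191) were smaller too, and Sstr3 (−0.278), Crem (−0.398) and Akap13 (−0.386) somewhat smaller. That fit raised the median standard error of all genes to 0.41, against 0.21 without the covariate.

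**Figure D5:**
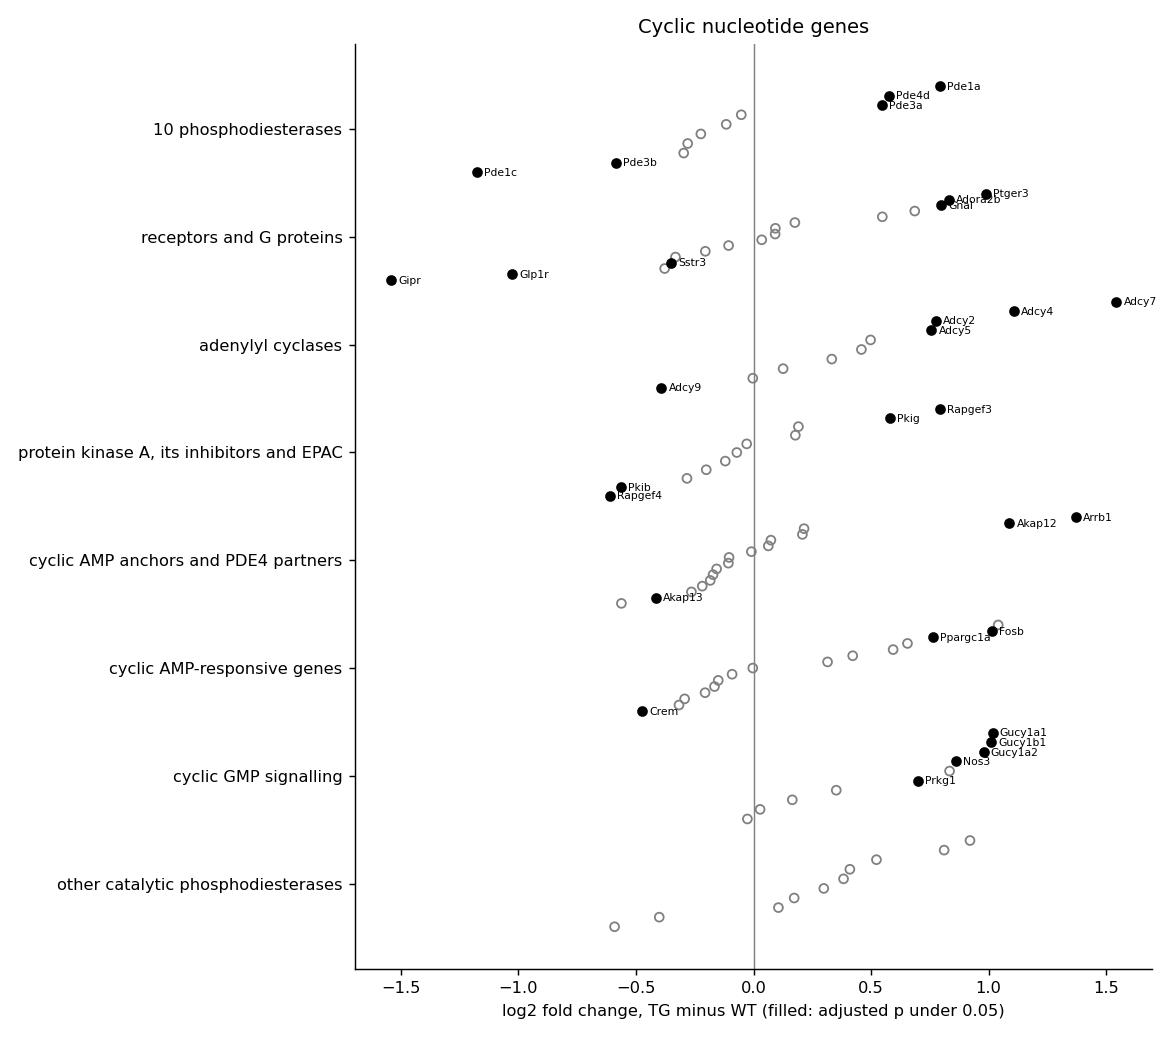
log2 fold change (TG minus WT) of each tested gene of the phosphodiesterase list and of the cyclic nucleotide lists, filled and named where adjusted p was under 0.05. Calls lie on both sides of 0 in the receptor, cyclase and kinase lists, and the 5 called cyclic GMP genes lie above 0.

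Once the group means were removed, the genes whose log2 CPM followed Pde4d most closely over the 8 libraries were Commd1 (Pearson r = 0.995), Zfp68 (0.986), Epm2aip1 (0.981), Susd1 (0.978) and Eif4a1 (0.977), among the 11952 genes averaging 5 CPM or more. With only 8 libraries, 113 genes reached 0.9. Because the group means were removed, the likeness describes variation within groups only. The 5 named did not differ between groups past the threshold (log2 fold changes from −0.15 to 0.05).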

How the data were processed

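Islet RNA was sequenced in 8 libraries, and the authors deposited 1 table per library of whole-number read counts per Ensembl mouse gene, not normalized. The submitters' processing notes list STAR 2.7.10a, HTSeq 0.11.3 and mm39. No source used here states whether counting was strand-specific. Groups and replicate numbers came from the sample titles. Entries for reads outside genes (25.3% to 31.5% of a table) and ambiguous reads (3.74% to 4.36%) stayed out of library sizes and tests. A mouse annotation of an earlier build (GENCODE M21) gave symbols to 52081 of 55414 identifiers, exon lengths and exon overlaps.

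Genes passing filterByExpr (minimum count 10) were tested with edgeR 4.0.16 (robust quasi-likelihood, two-sided, TMM scaling, group as the only term) in R 4.3.3, with Benjamini-Hochberg adjustment over 20509 genes. The step was also run on simulated counts in which randomly picked genes had known changes. Those counts held no shift of whole marker lists, so that run does not cover such a shift. SE is the log2 fold change divided by the root of the F statistic. Shares were compared with exact permutation tests in scipy 1.17.1, over gene counts. Other settings were DESeq2 1.42.0, limma-voom (limma 3.58.1), other scalings and filters, a replicate block, marker covariates, other denominators and each library left out. Counting by exon length was added after seeing the data. A count of 0 allows up to 3 counts, 0.133 to 0.182 CPM, for counting error only. Figures used matplotlib 3.10.9.

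The genes, lists, tests and settings were chosen with earlier results of these data known. The genes named are the 10, called genes among the other phosphodiesterases, up to 4 per pathway list with the lowest adjusted p, Atf4, Ins1, Ins2 and the 5 genes most like Pde4d. The other names (Pde2a, Pde5a, Pde6a, Pde7b, Pde9a, Pde11a, Adora2b, Gnal, Adcy2, Nos3) were chosen after their values were seen.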

Additional observations from a re-analysis of the deposited data

Results flagged for a closer look

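Among 42 sets of 4 libraries examined (CPM and share of each gene in each group), 3 held a library far from the others by Dixon's ratio, where chance alone would give about 1 in 20. In TG replicate 4, Pde4d supplied 44.6% of PDE4 counts, against 33.3% to 34.7% in the other TG libraries. Pde10a measured 36.9 CPM in TG replicate 4, against 26.3 to 26.7 CPM in the other TG libraries. Pde8a measured 47.6 CPM in TG replicate 1, against 61.3 to 63.9 CPM in the other TG libraries. TG replicate 1 also had the highest acinar marker sum (48231 CPM, against 7630 to 15034 CPM in the other TG libraries), and its part in the Pde8a value was not tested.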

How the results depend on the processing

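Pde4d and Pde1c were called in the same direction in all 17 other settings of the gene test (0.45 to 1.14 for Pde4d, −1.31 to −1.11 for Pde1c), and Pde3b in 16. With the vascular and stromal covariate 1 of the 10 genes was called higher, 1 lower and 333 genes in all, in place of 3, 2 and 4129, and Pde3a (−0.12), Pde1a (−0.05) and Pde10a (0.16) changed sign. The covariate itself ran from 0.507 to 0.888 in TG and from −1.0 to 0.095 in WT libraries, without overlap. Pde4a ran from −0.20 to 0.11 with a library left out. Leaving out each library gave 2 to 3 calls higher and 2 to 3 lower, 2864 to 4404 genes in all, and differences of 1.79 to 2.27 points for the Pde4d share and 9.70 to 13.5 points for its PDE4 share, where 3 against 4 libraries allow no exact p under 0.05. The Pde4c share, not called, changed sign over cyclic AMP-hydrolysing genes (−0.014 points). Correlations between same-numbered deviations ran from −0.03 to 0.08. They cannot show whether replicate numbers mark a shared batch or day, which the labels do not say. The replicate block gave the same 3 and 2 calls and 4673 genes in all, with a median SE of 0.188 against 0.207 without it. Outside the covariate fit, calls in the pathway lists ranged from 1 to 3 higher and 2 to 5 lower for receptors, 2 to 3 and 1 to 4 for anchors, 0 to 5 and 0 to 2 for cyclic AMP-responsive genes, 3 to 5 and 0 to 1 for cyclases, 2 and 1 to 3 for kinase genes, 3 to 6 and 0 for cyclic GMP genes, and 0 to 2 and 0 to 1 for the other phosphodiesterases. With a library left out, calls higher ranged from 3 to 13 for stellate, fibroblast and mural, 1 to 5 for ductal and 9 to 12 for endothelial markers. They ranged from 4 to 6 for macrophage and lymphocyte and from 2 to 3 for Schwann cell markers. Without WT replicate 4, 1 macrophage and lymphocyte marker was called lower. All 10 beta cell markers were called lower each time. Division by coding length was not run, and exon length was used in its place. Depth limits Pde4a and Pde1a most, with 50 to 68 and 131 to 180 counts per TG library and 46 to 67 and 61 to 119 per WT library.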
